A study of Mus musculus with 4 samples.

Results

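Complement genes were followed in RNA from mouse prelimbic cortex, a part of the medial prefrontal cortex. The set was 9 genes chosen by name, a choice made with earlier results of these data known: the 3 chains of C1q (C1qa, C1qb, C1qc), the components C4b, C3 and Cfb, the receptors C3ar1 and C5ar1, and the inhibitor Serping1. All 9 were listed among the 15396 genes of the AAV table. In the stress table of 12318 genes 8 were listed, and C1qc was not. The study has 4 groups of C57BL/6 mice aged 8 weeks, with 1 library per group. The first pair is a control library and a library from mice that the labels call stress-susceptible. The labels give chronic social defeat stress for both, so what the controls went through is unclear. The second pair received adeno-associated virus (AAV) carrying either green fluorescent protein (AAV-GFP) or the chromatin corepressor CDYL (AAV-CDYL). Neither the promoter of the virus, the time after injection nor the number of mice per library is given in the sources used here.

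Complement is a cascade of secreted proteins that tags targets and recruits phagocytes. C1q recognises a target and activates the proteases C1r and C1s. Of these, C1s cleaves C4 and C2, and the resulting enzyme cleaves C3. Factor B builds the amplifying convertase of the alternative pathway. The small fragments C3a and C5a act on G protein-coupled receptors, while the serpin C1 inhibitor shuts off C1r and C1s. In brain, C1q is made mainly by microglia, and C4 and C3 are known from reactive glia and from the tagging of synapses for removal.

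Values are FPKM, fragment numbers scaled to transcript length and library size, so levels of different genes can be set side by side. Depth estimated from the tables ranged from 14300000 fragments in the control library to 23900000 in the AAV-CDYL library. From it, each level was given a 95% exact Poisson interval, which covers counting error only and rests on approximate fragment numbers. Since each group is a single library, differences carry no replicate error and were not tested. The size rule calls a gene higher or lower once its log2(FPKM + 1) differs by 1.5-fold or more, provided that it reaches a floor of 1 FPKM in one of the paired libraries. In both tables the smallest log2 ratio of genes above 0 was 0.32, so genes closer than that are not listed, and an unlisted gene is not shown to be alike in both libraries. The level of Cdyl itself was 2.68 FPKM in the AAV-GFP library and 1052 in the AAV-CDYL library. The excitatory neuron markers listed summed to 986 and 728 FPKM in the stress pair (3 genes) and to 2372 and 1566 in the AAV pair (5 genes), while choroid plexus markers summed to at most 1.54 in any library.

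In the AAV-CDYL library all 9 complement genes were above AAV-GFP, by 3.28-fold to 192-fold, and each passed the size rule. Of all 8047 genes at FPKM of at least 1 in that pair, 31.3% were higher by the rule. The median difference in log2(FPKM + 1) was 3.59 over the 9 genes and 0.30 over all 8047. Only the 3 C1q genes were at FPKM of 1 or more with AAV-GFP, and all 3 were higher, against 21.2% of the 6679 genes at that level. The other 6 entered through their AAV-CDYL value, so the floor fixes their direction but not the size of their differences. Of the 8 genes listed in the stress pair 6 passed the floor, and 4 of these were higher in the susceptible library (C4b, C3ar1, C5ar1 and Serping1), where 18.9% of all 5334 genes were. The 4 became 2 (C4b and Serping1) after centring on the median of all genes passing the floor, and 1 (C4b) with a 2-fold rule. Those 4 were all under 1 FPKM in control and entered through the susceptible value, so the floor fixes their direction as well. The 31.3% and 18.9% also count genes at 1 FPKM or more in the reference library. They are therefore no like share for genes that entered this way. C1qa and C1qb, the 2 at 1 FPKM or more in control, were above control by less than the size rule.

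**Figure D1:**
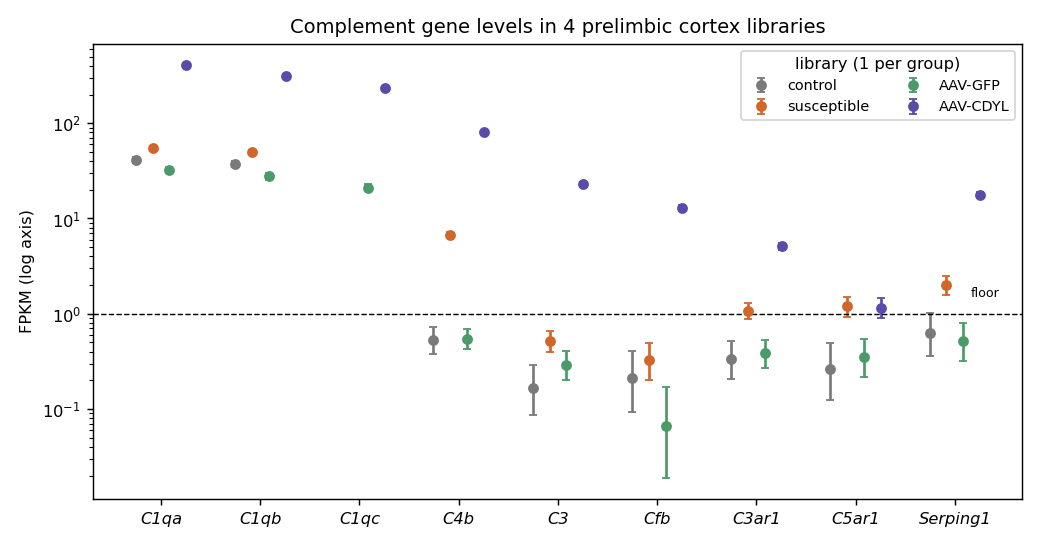
FPKM of each complement gene (log axis) in the control, susceptible, AAV-GFP and AAV-CDYL libraries, 1 point per library, with 95% Poisson intervals for counting error; the dashed line is the floor of 1 FPKM. In both reference libraries the C1q chains stand above 20 FPKM and the other genes below 1, and C1qc has no value in the stress pair.

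The C1q chains had the highest levels of the 9 genes in each library where they were listed. C1qa, the A chain (ENSMUSG00000036887, mm10 chromosome 4, 136895917 to 136898803), stood at 41.0 FPKM in control, 55.3 in susceptible, 32.6 with AAV-GFP and 404 with AAV-CDYL. C1qb, the B chain (136880129 to 136886187), stood at 37.4, 49.9, 27.7 and 310 in the same order. C1qc, the C chain (136889804 to 136893065), was listed for the AAV pair, at 21.1 and 237. AAV-CDYL was the high library of its pair for all 3 chains. The stress libraries, normalized in a separate table, lay closer together for C1qa and C1qb. For both genes the counting intervals of control and susceptible did not overlap.

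With AAV-CDYL the ratio to AAV-GFP was 12.4 for C1qa (counting interval 11.5 to 13.4), 11.2 for C1qb (10.4 to 12.1) and 11.3 for C1qc (10.3 to 12.3). The 3 intervals overlap, so the chains' ratios were not told apart at this depth. In the authors' deposited table each chain has q = 0.00727. Ratios of susceptible to control were 1.35 for C1qa (1.23 to 1.49) and 1.33 for C1qb (1.21 to 1.47). Their differences in log2(FPKM + 1), 0.42 and 0.41, fell short of the 0.585 that the size rule needs, and in the authors' deposited table q is 0.999 for both.

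The mature C1q molecule holds equal numbers of the 3 chains, and the within-library ratios of their RNA varied little. C1qa over C1qb was 1.10 in control, 1.11 in susceptible, 1.18 with AAV-GFP and 1.30 with AAV-CDYL. C1qb over C1qc was 1.31 in both AAV libraries, and C1qa over C1qc was 1.54 with AAV-GFP and 1.70 with AAV-CDYL. The genes lie side by side on the minus strand in the order C1qa, C1qc, C1qb, with 2.85 kb between C1qa and C1qc and 3.62 kb between C1qc and C1qb. No exon of another annotated gene (GENCODE M21) overlaps theirs.

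The promoter windows of C1qb and C1qc are shown, the C1q chains for which a window was at hand. They run from 250 bases before to 50 after the RefSeq start (GRCm38.p6, the build also called mm10, minus strand), at chr4:136886151-136886450 for C1qb and chr4:136892865-136893164 for C1qc, and capitals mark a match to the NF-kappaB consensus.
C1qb: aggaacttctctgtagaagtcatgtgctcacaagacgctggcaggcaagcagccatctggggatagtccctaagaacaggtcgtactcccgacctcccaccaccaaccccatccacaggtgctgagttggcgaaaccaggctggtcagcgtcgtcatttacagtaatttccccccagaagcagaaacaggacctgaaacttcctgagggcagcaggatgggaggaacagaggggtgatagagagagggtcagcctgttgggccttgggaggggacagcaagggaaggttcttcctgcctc
C1qc: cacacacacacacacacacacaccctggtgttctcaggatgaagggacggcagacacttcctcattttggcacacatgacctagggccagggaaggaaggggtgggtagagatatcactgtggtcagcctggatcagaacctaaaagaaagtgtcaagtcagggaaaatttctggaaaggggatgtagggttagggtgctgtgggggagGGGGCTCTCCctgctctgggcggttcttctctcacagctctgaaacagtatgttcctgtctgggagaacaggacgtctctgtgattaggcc
Windows were at hand for 5 of the 9 genes (C1qb, C1qc, C3, C3ar1 and C5ar1). Both strands were searched for GAS (TTCNNNGAA), the site of STAT factors, for the interferon-stimulated response element (ISRE) and for the NF-kappaB consensus. The single match in the 5 windows was the NF-kappaB one in C1qc, on the gene's strand from 41 to 32 bases before the RefSeq start. The deposited C1qc span reaches to 136893065, further than this start. The match and part of the bases before the start therefore lie inside that gene span. Over all 32851 windows of this length, 8.46% hold the NF-kappaB consensus, 8.30% GAS and 3.44% ISRE. A match is a description of letters and not a binding site, and the absence of one says nothing of the factors.

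C1q was set beside other microglial and macrophage genes, since these cells are its main source in brain. In the AAV pair all 15 markers exceeded AAV-GFP, 13 of them past the size rule (31.3% of all genes were higher), and their summed level was 200 FPKM in the AAV-GFP library against 1104 in the AAV-CDYL library. Their ratios ran from 1.27 for P2ry12, a purinergic receptor of homeostatic microglia, to 13.4 for Ctss, a lysosomal cysteine protease, with a median of 3.32. The C1q ratios of 11.2 to 12.4 were near the top of that range: Ctss exceeded all 3 chains, Cd68 exceeded C1qb and C1qc, and the other 13 markers were below. Within libraries, C1qa over Tyrobp, a signalling adaptor, was 2.50 with AAV-GFP and 2.81 with AAV-CDYL, and over Ctss 1.09 and 1.01. Over the fractalkine receptor gene Cx3cr1 it was 2.36 and 10.8, and over the receptor tyrosine kinase gene Csf1r 1.48 and 5.90. In bulk tissue, more cells of a type and more RNA per cell cannot be told apart.

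In the stress pair 11 of the 15 markers were listed, none at 0. Of these 8 were below control, 5 by the size rule, and 2 were higher by it, beside 10.8% lower and 18.9% higher of all genes. The summed level was 146 FPKM in control and 126 in susceptible. C1qa and C1qb, with Tyrobp, Ctss and Cd68, were above control, while P2ry12, in a locus of 6 listed genes, had the lowest ratio at 0.309. C1qa over Cx3cr1 was 3.29 in control and 6.10 in susceptible, over Tmem119 4.22 and 7.70, and over Tyrobp 2.50 and 2.56. So in both pairs C1qa kept a similar ratio to Tyrobp, while its ratio to Cx3cr1, in a locus of 3 listed genes, was higher in the treated library. These comparison genes were chosen after their values were seen. Trem2, also on the marker list, was lower in the susceptible library (ratio 0.341) and higher with AAV-CDYL (8.49).

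**Figure D2:**
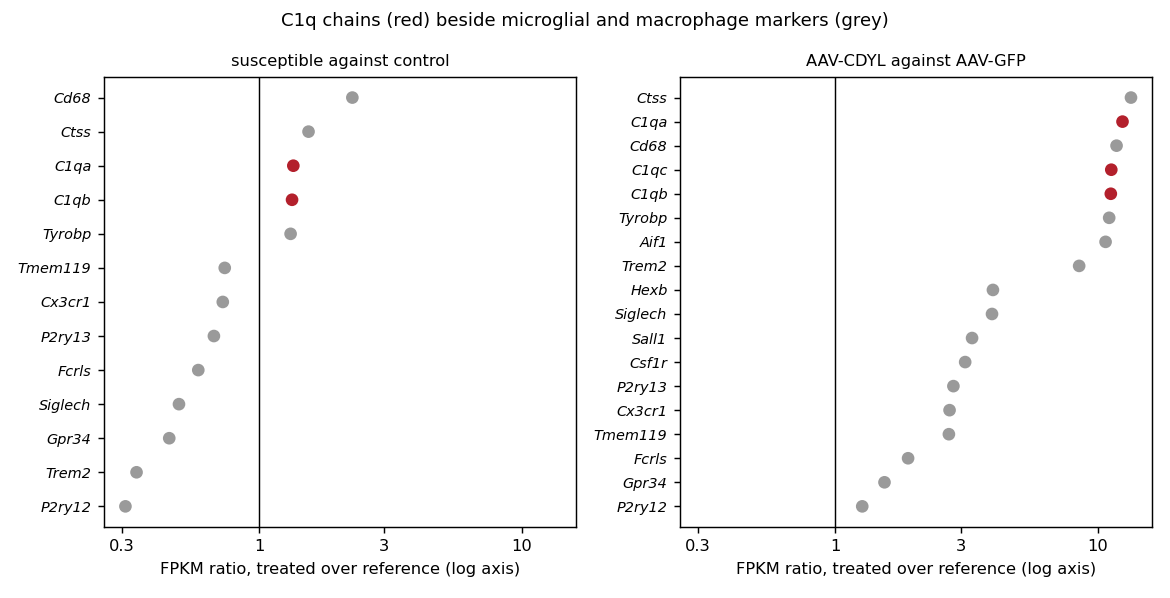
Ratio of FPKM, treated over reference library (log axis), for the C1q chains (red) and the listed microglial and macrophage markers (grey), with the stress pair on the left and the AAV pair on the right. The chains sit beside Ctss, Cd68 and Tyrobp in both panels, and P2ry12 is lowest in both.

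C4b, complement component 4B, a substrate of activated C1 (ENSMUSG00000073418, chromosome 17, 34728380 to 34743882), stood at 0.530 FPKM in control, 6.66 in susceptible, 0.545 with AAV-GFP and 80.0 with AAV-CDYL. The control interval ran from 0.380 to 0.720 and the AAV-GFP interval from 0.421 to 0.693, so both reference libraries were alike within counting error, although the tables were normalized separately. The ratio was 12.6 in the stress pair (9.17 to 17.6) and 147 in the AAV pair (115 to 190). Its difference in log2(FPKM + 1) ranked 45 of 5334 from the highest in the stress pair and 43 of 8047 in the AAV pair. It was the only one of the 8 members listed there with a q under 0.05 in the authors' deposited stress table (0.0225), where 0.284% of all genes are higher and 0.0487% lower at that threshold. In their AAV table its q is 0.00727, as for the C1q chains, and 0.955% of genes are higher. At an unadjusted p under 0.05, the authors' deposited tables have 3 of the 8 complement genes higher in the stress pair (C4b, C3ar1 and C5ar1), beside 3.12% of all genes higher and 1.22% lower. In the AAV pair they have 8 of the 9 higher, all but C5ar1, beside 5.16% of all genes higher and 0.318% lower.

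C4b has a close copy on the same chromosome, C4a, the sex-limited protein gene, annotated here as a processed transcript (34809092 to 34823464). Their longest transcripts were 96.1% identical over 5367 aligned bases, and 16.5% of the 100-base windows of C4b occur without a mismatch in a C4a transcript (35.2% of 50-base windows), so part of their fragments cannot be assigned. The 60-base coding stretch of a single exon with most differences is shown, at chr17:34735430-34735489 for C4b and chr17:34816086-34816145 for C4a, both in exon 21 of 41 on the minus strand, with the 13 differing bases in capitals.
C4b: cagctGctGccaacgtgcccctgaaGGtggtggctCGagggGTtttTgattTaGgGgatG
C4a: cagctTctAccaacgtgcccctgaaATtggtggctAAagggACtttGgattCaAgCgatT
C4a stood at 0.116 and 0.844 FPKM in control and susceptible, and at 0.495 and 6.99 with AAV-GFP and AAV-CDYL. C4b over C4a was 4.58 in control, 7.89 in susceptible, 1.10 with AAV-GFP and 11.4 with AAV-CDYL. Both genes were above their reference library in both pairs. How fragments were split between C4b and C4a was not tested, so the ratios, intervals and ranks given for C4b rest on the listed split.

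C3, on which all activation routes converge (ENSMUSG00000024164, chromosome 17, 57203970 to 57228136), stood at 0.166 FPKM in control, 0.519 in susceptible, 0.293 with AAV-GFP and 23.1 with AAV-CDYL. The AAV-CDYL library was high and the other 3 were under 1 FPKM. The ratio with AAV-CDYL was 79.0 (56.4 to 114), and in the authors' deposited table q is 0.880. C3 was under the floor in control and susceptible, and its ratio of 3.12 (1.67 to 6.32) rests on about 12.2 and 61.9 fragments.

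Cfb, factor B of the alternative pathway (ENSMUSG00000090231, chromosome 17, 34856374 to 34862518), stood at 0.211 FPKM in control, 0.325 in susceptible, 0.0667 with AAV-GFP and 12.8 with AAV-CDYL. The ratio with AAV-CDYL was 192, but the AAV-GFP value rests on about 4.15 fragments, and the counting interval ran from 75.8 to 685. Cfb too was under the floor in the stress pair, and the ratio of 1.54 had an interval of 0.661 to 3.97, so a difference was not detectable at this depth. Cfb shares a locus of 3 listed genes with C2, the protease partner of C4b, and with Gm20547, a readthrough gene that covers 79.5% of Cfb's exonic bases. C2 stood at 0.362 and 2.72 FPKM in the AAV pair, while Gm20547 was at or near 0 in both AAV libraries. Cfb over C2 was 0.184 with AAV-GFP and 4.71 with AAV-CDYL, so their listed order was inverted between these libraries. In the stress pair C2 stood near 0 in control and at 0.658 in susceptible, and Gm20547 at 0.0589 in control and near 0 in susceptible. How fragments were split among the genes of this locus was not tested, so the inversion is a description of listed values.

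C3ar1, the receptor for C3a (ENSMUSG00000040552, chromosome 6, 122847138 to 122856161), stood at 0.337 FPKM in control, 1.06 in susceptible, 0.386 with AAV-GFP and 5.10 with AAV-CDYL. Its ratio was 3.16 in the stress pair (1.96 to 5.33) and 13.2 in the AAV pair (9.49 to 18.9). C5ar1, the receptor for C5a (ENSMUSG00000049130, chromosome 7, 16246743 to 16259540), stood at 0.264, 1.20, 0.352 and 1.15 in the same order. It was the only one of the 8 genes listed in both tables whose susceptible value was not below its AAV-CDYL value (the tables were normalized separately), and the counting intervals of these 2 values overlapped. Its ratios were 4.54 (2.30 to 10.1) and 3.28 (1.98 to 5.68). In the authors' deposited tables, neither receptor has a q under 0.05 in either pair. 

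Serping1, the C1 inhibitor (ENSMUSG00000023224, chromosome 2, 84765387 to 84775444), stood at 0.634 FPKM in control, 1.99 in susceptible, 0.520 with AAV-GFP and 17.7 with AAV-CDYL. The AAV-CDYL library was the highest and the susceptible library second. Its ratio was 3.14 in the stress pair (1.82 to 5.74) and 33.9 in the AAV pair (22.0 to 55.3). In the authors' deposited tables q is 0.999 and 0.263.

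**Figure D3:**
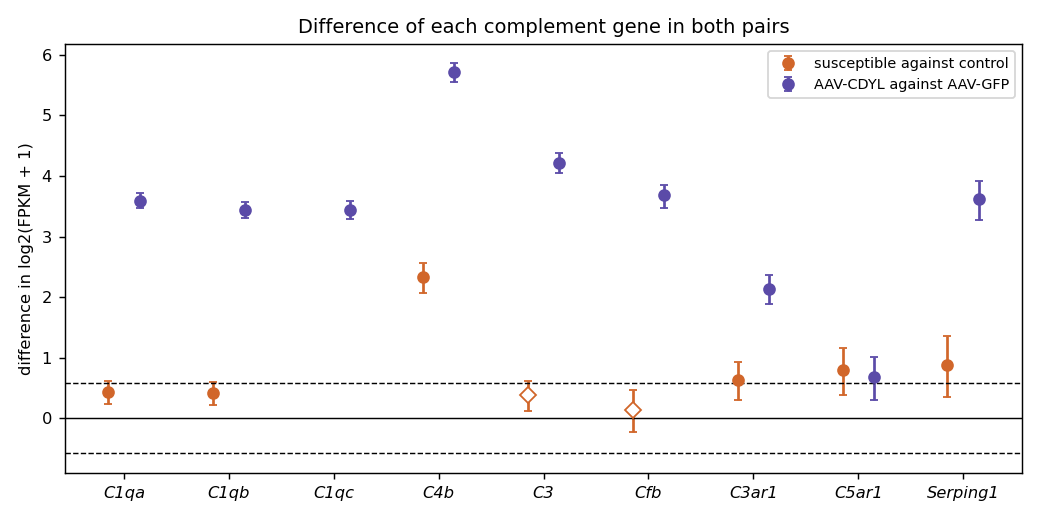
Difference in log2(FPKM + 1) of each complement gene, susceptible minus control (orange) and AAV-CDYL minus AAV-GFP (purple), with bars from the limits of both counting intervals; dashed lines mark the size rule and open diamonds genes under the floor. C4b has the largest difference in both pairs, and C5ar1 is the gene whose 2 differences lie closest.

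The order of levels shifted with these unequal ratios. In control C1qa and C1qb made up 97.3% of the summed FPKM of the 8 genes listed in both tables, in susceptible 90.0%, with AAV-GFP 96.5% and with AAV-CDYL 83.6%. The other 6 genes lay between 0.166 and 0.634 FPKM in control, where the intervals of neighbours in the order overlapped, and between 0.0667 and 0.545 with AAV-GFP. With AAV-CDYL they spread from 1.15 for C5ar1 to 80.0 for C4b, in the order C4b, C3, Serping1, Cfb, C3ar1 and C5ar1, with no overlap of intervals between neighbours. In susceptible the order was C4b, Serping1, C5ar1, C3ar1, C3 and Cfb, and the intervals of C5ar1 and C3ar1, and of C3 and Cfb, overlapped.

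The rest of the cascade was read from a list of 53 other complement genes in 6 roles. In the AAV pair 35 were listed and 19 passed the floor, of which 12 were higher and 0 lower, beside 31.3% higher and 14.4% lower of all 8047 genes, with a median difference of 0.86 in log2(FPKM + 1). Centred on the median of all genes passing the floor, the split was 9 higher and 3 lower, the lower ones being the membrane regulators Cd55, Susd4 and Csmd1. Of those 19, 11 were at FPKM of 1 or more with AAV-GFP, and 5 of the 11 were higher, beside 21.2% of all genes at that level. The rest of the 19 entered through their AAV-CDYL value, so the floor fixes their uncentred direction. The 31.3% and 14.4% are no like shares for them. In the stress pair 31 were listed and 9 passed, of which 1 was higher and 0 lower. That share does not exceed the 18.9% of all genes that were higher. The median was 0.25 beside 0.24 for all genes passing the floor.

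The listed C1 proteases stood under 1 FPKM in control, susceptible and AAV-GFP. C1ra, a copy of the C1r gene, stood at 0.263 and 0.902 FPKM in the stress pair and at 0.544 and 7.05 in the AAV pair, C1rb, its close paralog, at 0.304 and 3.10 in the AAV pair, and C1s1 at 0.192 and 2.81. All 3 passed the size rule in the AAV pair. They entered through their AAV-CDYL value, so the floor fixes that direction but not the size of the differences. Terminal components, which form the membrane pore, had no listed gene at 1 FPKM (3 of 6 genes listed in the stress pair and 5 in the AAV pair). Among other components, properdin (Cfp), which stabilises the alternative convertase, stood at 1.88 and 1.38 in the stress pair and at 0.871 and 2.01 in the AAV pair. 

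The soluble regulators clusterin and vitronectin had smaller ratios than the C1 proteases in the AAV pair. Clusterin (Clu), an abundant astrocyte product, stood at 251 and 332 FPKM in control and susceptible and at 258 and 470 in the AAV pair. Vitronectin (Vtn) stood at 19.4 and 37.3 in the AAV pair. Both passed the size rule there, and clusterin did not in the stress pair. Of 5 membrane regulators at FPKM of at least 1 in the AAV pair, 0 passed it in either direction: Cr1l, the mouse C3 convertase inhibitor, stood at 11.0 and 15.2, Cd59b at 1.05 and 1.75, and Cd55, decay-accelerating factor, at 4.39 and 2.94, lower by the rule after centring. 

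The integrin receptors for cleaved C3 were higher with AAV-CDYL. Itgb2, their shared beta chain, stood at 1.75 and 3.32 FPKM in control and susceptible and at 1.59 and 17.5 with AAV-GFP and AAV-CDYL. Itgam, the alpha chain of complement receptor 3, stood at 4.39 and 3.33, and at 4.41 and 18.7. Itgam had 2 rows in the stress pair, of which the one with the higher mean is given, and a locus of 2 listed genes in the AAV pair. Itgax, the alpha chain of complement receptor 4, stood at 0.0217 and 12.5 in the AAV pair. It passed the floor only through its AAV-CDYL value, and in the authors' deposited table its q is 0.999. Itgb2 was the 1 gene of the wider list that passed the size rule in the stress pair. C1ql3, a C1q-like synaptic organiser of neurons rather than a complement gene, went the other way in the AAV pair, at 140 and 73.0, in a locus of 3 listed genes.

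**Figure D4:**
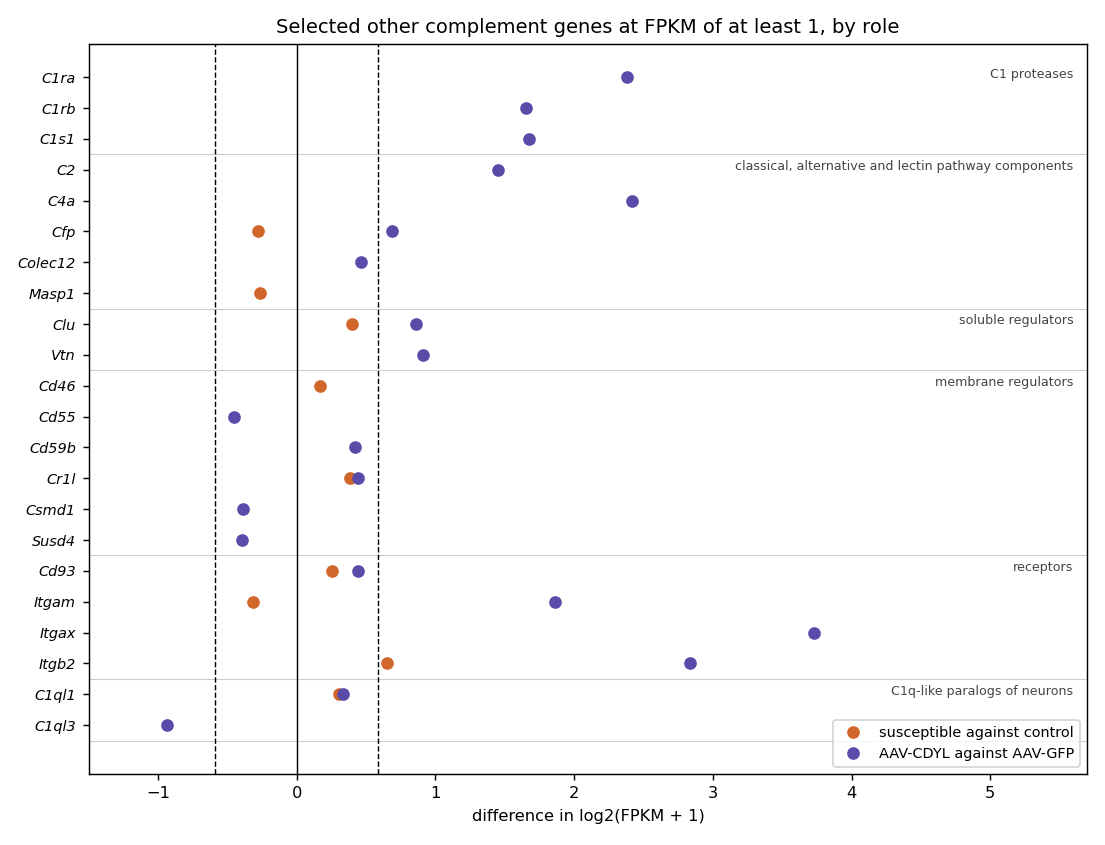
Difference in log2(FPKM + 1) for a selection of other complement genes, and for C1q-like paralogs of neurons, at FPKM of at least 1, by role. Values are susceptible minus control (orange) and AAV-CDYL minus AAV-GFP (purple), and dashed lines mark the size rule. C1 proteases, C4a, C2 and the integrin receptors lie to the right in the AAV pair, and membrane regulators lie within the dashed lines on this uncentred scale. The C1 proteases, C4a, C2 and Itgax passed the floor only through their AAV-CDYL value, which fixes their direction.

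Genes most like each complement gene were found by the distance over its 2 differences in log2(FPKM + 1), among 3176 genes that passed the floor in both tables with no value at 0. Only 2 numbers per gene enter, so likeness is loose. Nearest to C1qa were Bcl2a1b, C1qb and Ctss (distances 0.11, 0.16 and 0.21), and nearest to C1qb were Bcl2a1b, Tyrobp and C1qa (0.046, 0.076 and 0.16). C4b had no close neighbour: Gfap, the astrocyte filament gene, in a locus shared with other listed genes, was nearest at 0.72, followed by the interferon-induced genes Isg15 at 0.76 and Ifitm3 at 0.84. Nearest to Serping1 were Tspo, Ifi30 and Lgals9 (0.076, 0.12 and 0.14). Nearest to C3ar1 were Syngr2, Csf3r and Slc14a1, and nearest to C5ar1 were Rasd1, Gm16477 and Jpx, all within 0.03.

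Other gene groups moved with the complement genes. The shares to read their counts against are 31.3% higher and 14.4% lower of all genes passing the floor in the AAV pair, and 18.9% and 10.8% in the stress pair. In the AAV pair all 22 interferon-stimulated genes were higher, with a summed level of 66.8 FPKM in the AAV-GFP library and 1323 in the AAV-CDYL library, and so were all 12 of those at 1 FPKM or more with AAV-GFP. Genes of NF-kappaB and acute-phase signalling were higher for 14 of 15, with sums of 29.9 and 119, and for 4 of 5 at that level. T and NK cell markers summed to 0.764 and 37.3, with Cd3d, Cd3g, Cd8a, Gzmb and Nkg7 listed at 0 with AAV-GFP. B and plasma cell markers summed to 0.241 and 88.4, with Cd79a and Mzb1 among those listed at 0 with AAV-GFP. In these lymphocyte lists 8 of 8 and 3 of 3 were higher, all entering through their AAV-CDYL value, so the floor fixes that direction. Monocyte and neutrophil markers summed to 5.17 and 100.4 (5 of 5 higher, of which 1 reached the floor in the AAV-GFP library). Most of the AAV-CDYL sum came from Ly6c2 (79.1) and Plac8 (16.8). Among the neutrophil genes S100a8 and S100a9 reached only 1.74 and 1.09 FPKM with AAV-CDYL, and Ngp was not listed. Ltf, under the floor, went the other way, at 0.520 and 0.0313.

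Among resident cells, most glial, vascular and meningeal markers passing the floor were higher in the AAV pair too. Oligodendrocyte markers were higher for 10 of 10 (656 and 2552 FPKM), astrocyte markers for 7 of 8 with 1 lower (218 and 793), endothelial markers for 3 of 5 (71.1 and 156), and markers of pericytes, smooth muscle and meninges for 3 of 5 (10.5 and 23.7). Excitatory neuron markers were lower for 3 of 5.

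For susceptible against control, interferon-stimulated genes were higher for 8 of 11, with sums of 29.2 and 69.4 FPKM, and the NF-kappaB list for 10 of 11, with sums of 35.6 and 102. With the floor set on the control library these counts were 4 of 6 and 3 of 4, where 13.5% of all genes were higher. Monocyte and neutrophil markers were higher for 6 of 6 (82.1 and 334, with Ccr2 at 0 in control), and for 5 of 5 at that level. Oligodendrocyte markers were higher for 9 of 10 (613 and 1583), astrocyte markers for 4 of 7 (407 and 695) and endothelial markers for 4 of 7 (88.3 and 227). Markers of pericytes, smooth muscle and meninges were higher for 4 of 6 (8.28 and 20.3), and for 1 of 3 at 1 FPKM or more in control. Of T and NK cell markers 2 of 8 were listed, summing to 0.600 and 1.51. B and plasma cell markers summed to 0.307 and 0.159, with Jchain and Ms4a1 at 0 in control and Mzb1 at 0 in susceptible. Red blood cell genes were lower for 2 of 5 (873 and 519), and excitatory neuron markers for 1 of 3. The part of any of these cells or signals in the complement levels was not tested.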

How the data were processed

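RNA was extracted from prelimbic cortex and sequenced in 4 libraries, 1 per group, per the labels' protocols. The authors deposited 1 table per pair with FPKM values; Cuffdiff and build mm10 come from the submitters' processing notes. An aligner and annotation are not given in the sources. The tables were normalized separately, and each difference is within 1 of them. The authors' deposited p-values and q-values compare 1 library with 1 and are printed only as theirs. The header of the susceptible column misspells its title.

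Differences were taken as log2(FPKM + 1), a pseudocount of 1, which understates low genes; folds are ratios of FPKM. Where a symbol had several rows the row with the highest mean was used. Depth came from the spacing of low FPKM in genes with 1 transcript of 3 to 20 kb (GENCODE M21, same build); at least 92.9% of low values lay within 0.15 of a whole step. Fragments per gene used the longest coding transcript and ignore fragment length. The procedure was tested on simulated data. The members and lists were chosen with earlier results of these data known. Genes were named by rule: all 9 members, up to 3 genes per role of the wider list with the largest difference, the 3 nearest genes of each member, and a few markers. Some results this rule takes are not reported here. Further genes of the marker list are named in comparisons with C1q and were chosen after their values were seen. Alternatives were pseudocounts of 0.1 and 0.5, no floor, floors of 5 FPKM and on the reference library, a 2-fold rule, 2 scalings and the authors' thresholds. Tools were scipy 1.17.1, pandas 2.3.3, numpy 2.4.6 and matplotlib 3.10.9 under Python 3.11.15.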

Additional observations from a re-analysis of the deposited data

How the results depend on the processing

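In the AAV pair, the count of 9 higher complement genes was 8 to 9 under other pseudocounts, floors on either library, the 2-fold rule and both scalings, but 3 with the floor on the AAV-GFP library, which leaves 3 genes, and 4 at the authors' q under 0.05. The 12 higher of the wider list became 5 with that floor, 0 at q under 0.05 and 6 at an unadjusted p under 0.05, and were 8 to 15 otherwise. In the stress pair, the 4 higher complement genes became 1 with a floor of 5 FPKM, with the 2-fold rule and at q under 0.05, 2 with median centring and 0 with the floor on control, which leaves 2 genes. They were 3 at an unadjusted p under 0.05 and 4 otherwise. The 1 higher gene of the wider list became 2 with pseudocounts of 0.1 and 0.5 and with upper quartile scaling, 5 (and 1 lower) without a floor, and 0 with a floor of 5 FPKM, the 2-fold rule, median centring and either authors' threshold among genes passing the floor (of all 31 listed, 3 are higher at an unadjusted p under 0.05).

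Centring takes off the median of listed genes (0.24 in the stress pair and 0.30 in the AAV pair), and small differences are missing from the tables. After it, C4b stood at 2.08 and 5.41, C1qa at 0.18 and 3.30, and C5ar1 at 0.55 and 0.37, under the size rule in both pairs. C3ar1 stood at 0.38 in the stress pair. Of the 17 single-gene differences the only one to change sign was Cfb in the stress pair, from 0.13 to -0.11. No paired analysis was possible because each group has 1 library. Depth limits C3, C5ar1, Cfb and Serping1 in the reference libraries.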
